A study of Homo sapiens with 6 samples.

Results

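The genes described here build and feed the peptide-loading machinery of MHC class I. They are PSMB8, PSMB9 and PSMB10 (the catalytic subunits of the immunoproteasome), PSME1 and PSME2 (its PA28 activator), TAP1 and TAP2 (the peptide transporter), TAPBP (tapasin), TAPBPL (a tapasin-related peptide editor) and ERAP1 (a peptide-trimming aminopeptidase). The 10 genes were chosen by name, with earlier results of these data known. Every probe set annotated to them was read on Affymetrix HG U133 Plus 2.0 arrays. In all 20 probe sets list at least 1 of them, 19 list 1 of them alone, and 16 of those 19 passed the filter on low signals, against 26833 probe sets that passed over the whole array. At the level of genes, 9 of the 10 have a probe set of their own and all 9 passed, among 11835 genes tested. The probe set of PSME2 also lists the microRNA gene MIR7703, so its values are given under both names and enter no count.

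RNA came from HT29, an established human colon adenocarcinoma line, in 2 states with 3 samples each. The sensitive cells were the line as normally kept, in Ham's F12 medium with fetal bovine serum, and carried no selection. The resistant cells had been selected from it in rising concentrations of methotrexate (MTX), an antifolate, until they tolerated 10 μM, and were kept in a medium without glycine, hypoxanthine and thymidine, with dialyzed serum. Medium and resistance therefore go together and cannot be told apart, the resistant line stands for 1 selection, and no source says whether the samples of a group were separate cultures, so the p-values cover only the scatter among these samples, technical scatter included.

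Proteasomes cut proteins into peptides. In the immunoproteasome 3 catalytic subunits of the standard 20S core are exchanged, PSMB5 for PSMB8, PSMB6 for PSMB9 and PSMB7 for PSMB10, which favours fragments that fit class I molecules. PA28 caps the core, TAP1 and TAP2 carry peptides into the endoplasmic reticulum, ERAP1 trims them there, and tapasin holds class I molecules next to the transporter and edits the peptides they keep. Interferons are known to induce most of these genes in epithelial cells, through interferon regulatory factors that bind repeats of GAAA.

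The RefSeq promoter table of GRCh38.p14 holds 14 start sites of the 10 genes. The letters GAAANNGAA, the core of the site bound by interferon regulatory factors, were searched on both strands in the 250 bases before each start. They were present for 5 of the 10 genes (PSMB10, PSME2, TAP1, TAP2 and TAPBP), against 8.41% of 27305 genes in the table. With the 50 bases after the start included, a window chosen after the first matches were seen, 8 of the 10 genes held the core, against 9.86% of all genes, since in PSMB8, PSME1 and ERAP1 it lies at or just after the start. These 8 stretches of 29 bases are shown because interferon regulatory factors are known activators of these genes. Each is printed 5′ to 3′ on the strand of its gene, with the core or cores in capitals.
PSMB8 (chr6:32844032-32844060, minus strand): atctgtggctTTCGCTTTCacttcctcct
PSMB10 (chr16:67936853-67936881, minus strand): gggtaaaggcGAAAGCGAAagcaggaagt
PSME1 (chr14:24136190-24136218, plus strand): ccctaccgctTTCGCTTTCccttcgcggt
PSME2 (chr14:24146620-24146648, minus strand): cctggggagtGAAAGCGAAagcccgggcg
TAP1 (chr6:32853816-32853844, minus strand): ggccgctTTCGATTTCGCTTTCccctaaa
TAP2 (chr6:32838779-32838807, minus strand): ctggggaagcGAAAGCGAAagctgcccga
TAPBP (chr6:33314077-33314105, minus strand): tttggagGAAAGTGAAAGTGAAaggagga
ERAP1 (chr5:96807924-96807952, minus strand): gggctccactTTCACTTTCggtcctgggg

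In PSMB8, PSME1, TAP1 and ERAP1 the capitals read as the core on the opposite strand. TAP1 and TAPBP each hold 2 overlapping cores, and every other stretch holds 1. The cores end 5 bases before the start in TAPBP, 12 in PSMB10, 19 in PSME2, 49 in TAP2 and 118 in TAP1. PSMB9 showed no match in its own window. TAP1 and PSMB9 start 487 bases apart on opposite strands of chromosome 6, so the TAP1 cores lie between both starts, 354 bases from that of PSMB9. TAPBPL held no match. The letters TTCNNNGAA, the core of sites bound by STAT factors, were found before a start of 2 of the 10 genes (PSMB8 and TAP1), against 8.09% of all genes, and none overlapped an interferon factor core. GGGCGG, the core of the GC box, was found for 7 of the 10 before the start, against 46.2%, and for 8 of the 10 with the 50 bases after it, against 48.3%. No binding was measured, so a match describes letters and nothing else.

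Signals are given as the MAS5 signal divided by the median of its array, called scaled signal, so that 1 is the median probe set. Array medians lay between 14.2 and 15.4 in the sensitive and between 13.3 and 16.9 in the resistant samples. The 3′ to 5′ signal ratio of the ACTB control, which rises as RNA degrades, was 1.12 to 1.17 in the sensitive and 1.17 to 1.30 in the resistant samples, and that of GAPDH was 1.00 to 1.01 and 0.980 to 1.04. Their part in the results was not tested. The epithelial marker EPCAM read 322 ± 21.2 (SD, n = 3) in the sensitive and 319 ± 2.54 in the resistant cells, while the pan-leukocyte marker PTPRC stayed under the array median in all 6 arrays. CDX1 and CDX2, colon transcription factors, were also under the array median in all 6. Of 8 tested colon epithelial markers 5 were lower and 1 was higher, where 21.4% of all tested genes were lower. Their median log2 fold change was -0.46, and their part in the results was not tested. Among them KRT8 (log2 fold change -0.77) and LGALS4 (-0.71) fell and CDH17 rose (1.20), a call lost under quantile normalization (adjusted p = 0.0591). In a bulk sample fewer expressing cells and less RNA per cell cannot be told apart.

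All 9 genes were lower in the resistant cells by limma's moderated test at a Benjamini-Hochberg adjusted p under 0.05, where 21.4% of all tested genes were lower. 5 of the 9 (PSMB8, PSMB9, TAP1, TAP2 and TAPBPL) were lower by at least 3-fold, against 2.14% of all tested genes. These 5 also stand in the study's own list of changed genes, which was drawn from these arrays, so their direction is not independent evidence. In each of the 9 genes every resistant array lay under every sensitive array, as in 29.3% of all tested genes. The methods' t-test was rerun on log2 scaled signal with the filter used here, Benjamini-Hochberg adjusted over the same probe sets. It called 6 of the 9 lower with equal variances and 1 of the 9, ERAP1, with unequal variances. Of all tested genes it called 7.98% and 0.532% lower. The methods give another filter, on control strength, and no variance assumption, so these counts are not the study's own calls. TAPBPL stands in the study's list, yet did not pass this rerun (adjusted p = 0.0664 with equal and 0.164 with unequal variances). Over probe sets, 13 of 16 passed limma's test, all of them lower, where 19.5% of all tested probe sets were lower. PSMB9 and TAPBPL passed the filter through their sensitive arrays alone. Counted without them, after seeing the data, 7 of 7 genes were lower with groups that did not overlap, 3 of 7 were lower by at least 3-fold and 10 of 13 probe sets were lower, and the median log2 fold change was -1.22. The median log2 fold change (resistant over sensitive, on log2 scaled signal) was -2.35 over the 9 genes and -0.10 over all tested genes. Quantile normalization moved the median of all genes to 0.02 and that of the 9 genes to -2.23, so that relative to all genes the 9 stood at -2.26 and -2.25.

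**Figure D1:**
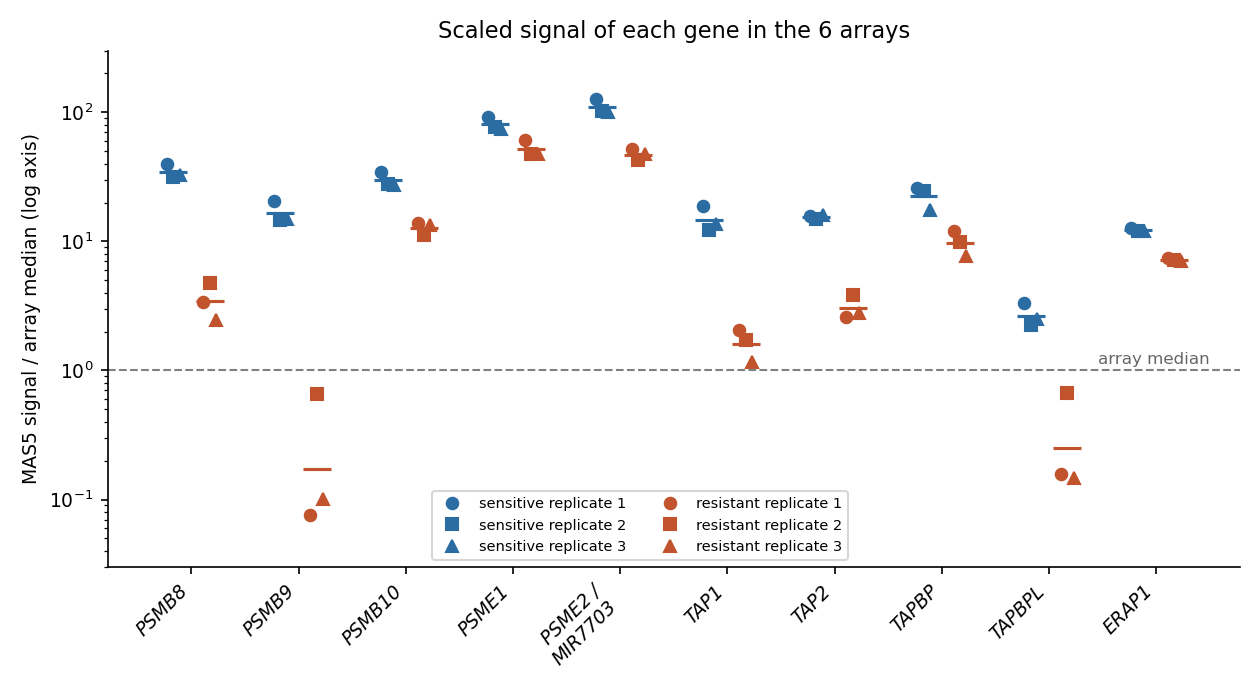
Scaled signal (MAS5 signal over the array median, log axis) of each gene at its brightest probe set in the 3 sensitive (blue) and 3 resistant (orange) samples, with marker shape for the replicate number and a bar at the geometric mean. No gene's groups overlap, and only PSMB9 and TAPBPL fall under the dashed line of the array median in the resistant cells.

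The catalytic subunits split into a pair with deep falls and 1 with a modest one. PSMB8 supplies the chymotrypsin-like site. Its scaled signal was 40.0, 31.5 and 32.4 in sensitive replicates 1, 2 and 3, and 3.41, 4.77 and 2.47 in resistant replicates 1, 2 and 3. The groups stood far apart, with a log2 fold change of -3.33 (SE 0.204, adjusted p = 3.58e-11), or 10.1-fold lower.

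PSMB9, which replaces the caspase-like subunit, had the deepest change. It read 20.5, 14.6 and 15.0 in the sensitive arrays and 0.0752, 0.662 and 0.101 in the resistant arrays. All 3 resistant values were under the array median, and replicate 2 was well above the other two. The log2 fold change was -6.59 (SE 0.526, adjusted p = 2.97e-09), but its size rests on signals near the bottom of the scale. With every scaled signal under 1 set to 1, a setting chosen after seeing the data, it was -4.04, and on log2(scaled signal + 1) it was -3.80. Without resistant replicate 2 it was -7.57, and without resistant replicate 1 it was -6.00.

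PSMB10, which replaces the trypsin-like subunit, read 34.5, 27.9 and 27.4 in the sensitive arrays and 14.0, 11.1 and 13.4 in the resistant arrays. The lowest sensitive array, at 27.4, lay well above the highest resistant one, at 14.0. The log2 fold change was -1.22 (SE 0.162, adjusted p = 5.84e-06), or 2.33-fold lower.

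The 3 standard subunits that these replace moved little. PSMB5 read 81.0 ± 13.1 (SD, n = 3) in the sensitive and 62.6 ± 11.3 in the resistant cells, with overlapping groups and a log2 fold change of -0.37 (SE 0.146) that did not pass the test (adjusted p = 0.0581). PSMB6 read 65.1 ± 8.13 and 63.5 ± 11.7, at -0.04 (SE 0.142, adjusted p = 0.854). PSMB7 fell from 171 ± 15.1 to 134 ± 14.5, at -0.36 (SE 0.110, adjusted p = 0.0179).

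The ratio of each immunosubunit to its standard counterpart was then taken within each array and compared between groups. The log2 ratio of PSMB8 to PSMB5 was -1.25, -1.34 and -1.08 in the sensitive arrays and -4.43, -3.41 and -4.69 in the resistant arrays, a difference of -2.96 (SE 0.397). For PSMB9 to PSMB6 the difference was -6.55 (SE 1.10), from -1.86, -2.07 and -1.99 to -10.0, -6.39 and -9.18. For PSMB10 to PSMB7 it was -0.87 (SE 0.0713), from -2.45, -2.53 and -2.58 to -3.43, -3.47 and -3.27. In each of the 3 pairs every resistant ratio was under every sensitive one. The exact two-sided permutation p was 0.1 for each, which is the smallest that 3 against 3 arrays allow, and 0.1 after adjustment over the 3 pairs, so none could pass 0.05. Resistant replicate 2 held the highest ratio of PSMB8 and of PSMB9 among the resistant arrays, and without it these differences were -3.34 and -7.62. The size for PSMB9 depends on how low signals are treated, at -4.0 with signals under the array median set to it and -3.76 on log2(scaled signal + 1). The difference for PSMB10 was -0.53 on the mean of all probe sets.

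**Figure D2:**
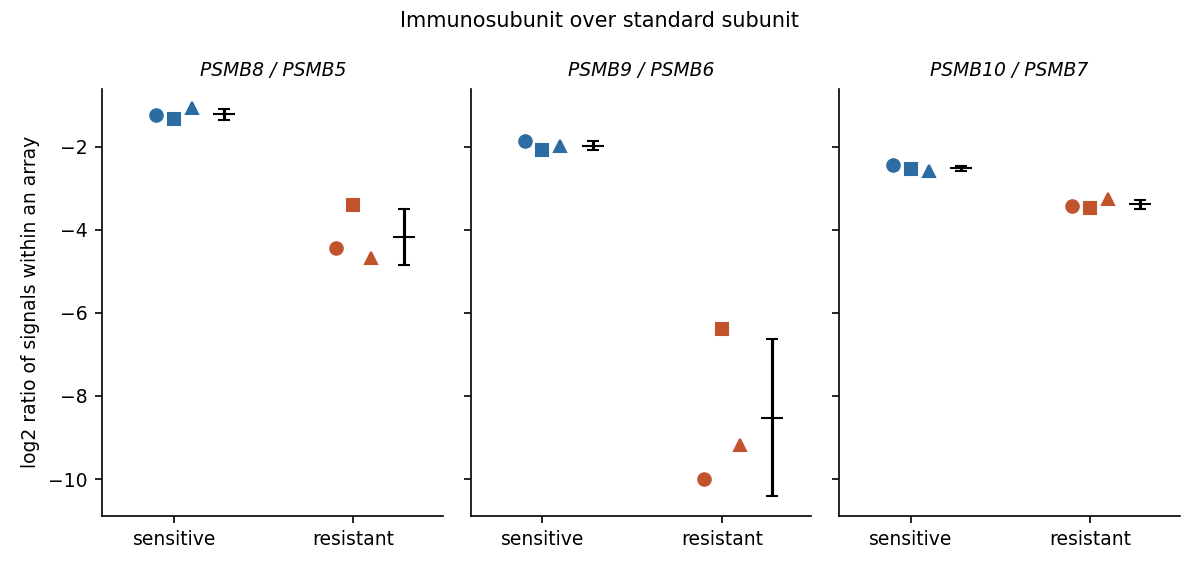
Log2 ratio of each immunosubunit's signal to that of the standard subunit it replaces, within each array (sensitive blue, resistant orange, marker shape for the replicate number), with the mean ± SD of each group in black. The resistant points lie lower in all 3 pairs, with a difference on the log2 scale of -2.96 for PSMB8, -6.55 for PSMB9 (-4.0 with signals under the array median set to it) and -0.87 for PSMB10.

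PSME1, the alpha subunit of the PA28 activator, was lower as well. It read 91.5, 77.5 and 74.3 in the sensitive arrays and 61.5, 48.0 and 47.3 in the resistant arrays. The groups did not overlap, and the log2 fold change of -0.64 (SE 0.136, adjusted p = 0.00118), or 1.56-fold lower, was the smallest of the 9. The probe set that lists both PSME2, the beta subunit, and MIR7703 read 128, 102 and 101 in the sensitive and 51.6, 43.0 and 47.1 in the resistant arrays. Its log2 fold change was -1.22 (SE 0.130, adjusted p = 2.81e-07), or 2.33-fold lower. The sequence that the platform gives for this probe set is a PSME2 mRNA, and the part of MIR7703 in its signal was not tested.

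Both chains of the transporter were lower. TAP1 read 18.8, 12.3 and 13.7 in the sensitive arrays and 2.06, 1.72 and 1.15 in the resistant arrays. The resistant values came close to the array median, at a log2 fold change of -3.20 (SE 0.226, adjusted p = 3.76e-10), or 9.19-fold lower. TAP2 read 15.8, 14.8 and 16.0 in the sensitive arrays and 2.61, 3.86 and 2.78 in the resistant arrays. Its sensitive arrays lay closest together of these genes after ERAP1, and the log2 fold change was -2.35 (SE 0.188, adjusted p = 2.97e-09), or 5.12-fold lower. The other tested probe sets of TAP2 gave -2.06 (SE 0.270, adjusted p = 4.82e-06) and -1.60 (SE 0.346, adjusted p = 0.00132). In the latter, resistant replicate 1 read 0.842 while replicates 2 and 3 read 3.14 and 3.41. The fourth TAP2 probe set was under the filter, with overlapping groups.

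Both genes that hold and edit class I molecules were lower. TAPBP read 25.8, 24.4 and 17.6 in the sensitive arrays and 12.1, 9.95 and 7.70 in the resistant arrays. The log2 fold change was -1.20 (SE 0.190, adjusted p = 5.32e-05), or 2.29-fold lower. A second probe set gave -0.87 (SE 0.194, adjusted p = 0.00172). The third, with signals between 1.47 and 1.91 in all 6 arrays, gave -0.16 (SE 0.321, adjusted p = 0.748) and overlapping groups.

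TAPBPL read 3.35, 2.24 and 2.51 in the sensitive arrays and 0.158, 0.669 and 0.148 in the resistant arrays. Its resistant values were all under the array median, with replicate 2 again the highest. The log2 fold change was -3.41 (SE 0.669, adjusted p = 0.000539), and a second probe set gave -3.85 (SE 1.05, adjusted p = 0.00798). The size again rests on the dim resistant signals. On log2(scaled signal + 1) the change was -1.49, and with signals under the array median set to it -1.41, which leaves 4 of the 9 genes lower by at least 3-fold, and without resistant replicate 2 it was -4.12.

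ERAP1, the trimming peptidase, read 12.7, 12.0 and 12.1 in the sensitive arrays and 7.42, 7.19 and 7.0 in the resistant arrays. Both groups were tight, at 12.3 ± 0.370 and 7.20 ± 0.211 (SD, n = 3). The log2 fold change was -0.77 (SE 0.165, adjusted p = 0.00131), or 1.70-fold lower. The other 2 tested probe sets of ERAP1 did not pass the test, at -0.66 (SE 0.283, adjusted p = 0.0856) and -0.23 (SE 0.411, adjusted p = 0.72), and a further 2 were under the filter. Averaged over its 3 tested probe sets the change of ERAP1 was -0.55.

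**Figure D3:**
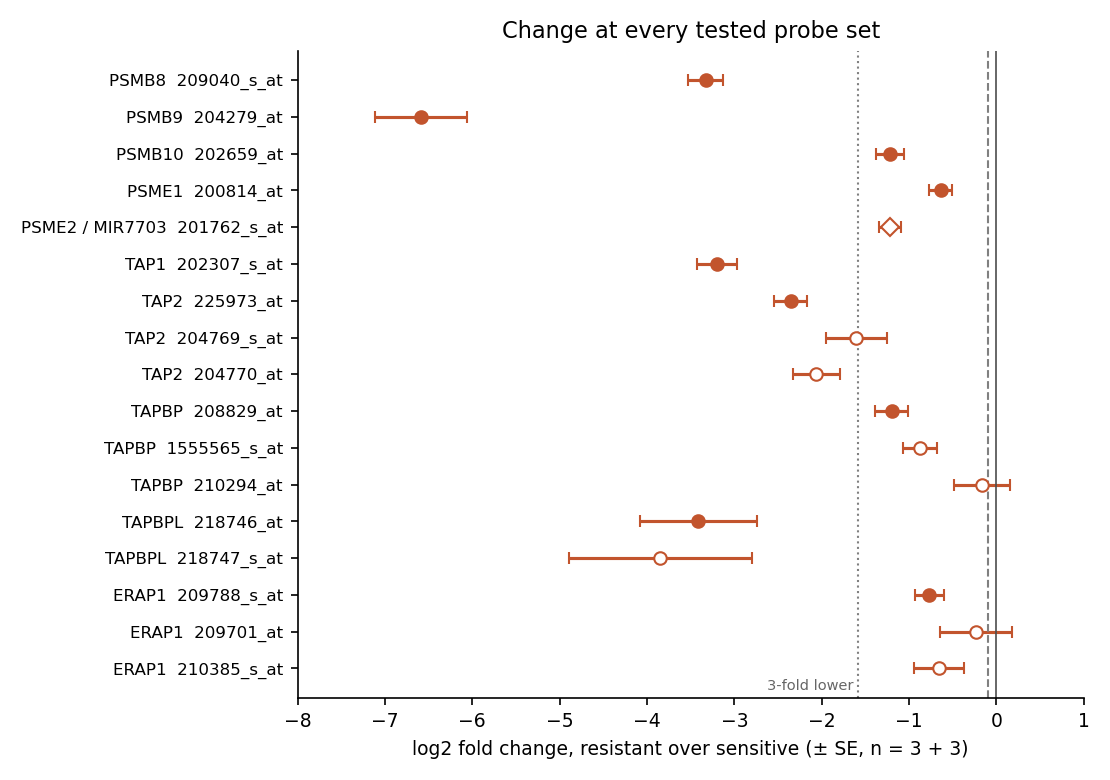
Log2 fold change (resistant over sensitive, ± SE, 3 arrays a group) at every tested probe set of the genes, with the brightest probe set of each gene filled and the probe set shared by PSME2 and MIR7703 as a diamond. The dashed line is the median of all tested genes, the dotted line marks 3-fold, and 1 probe set of TAPBP and 2 of ERAP1 did not pass the test.

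Ordered by depth of change, PSMB9 came first, followed by PSMB8, TAP1, TAP2, PSMB10, TAPBP, ERAP1 and PSME1. TAPBPL has no settled place, since its change of -3.41 lay next to that of PSMB8 and became -1.41, between TAP2 and PSMB10, with signals under the array median set to it. PSMB8 and TAP1 could not be put in order, since their difference of 0.13 was within the spread between arrays. TAP1 lay 0.85 (SE 0.337) below TAP2, and TAP2 lay 1.13 (SE 0.295) below PSMB10, with no overlap between the arrays in either case. From PSMB10 to PSME1 each gene overlapped the next over the arrays, with gaps of 0.02, 0.43 and 0.13. The order is a description and was not tested.

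Within the resistant samples the genes did not all rank the arrays alike. Replicate 2 was the highest resistant array for PSMB8, PSMB9, TAP2 and TAPBPL, 4 of the 9 genes, and replicate 1 was the highest for the other 5. Over all tested genes replicate 2 was the highest resistant array in 11.7% and replicate 1 in 70.9%. Among the 253 genes lower by at least 3-fold these shares were 35.6% and 43.1%. Replicate 1 has the lowest array median, 13.3, and scaling divides by it, whose part in these ranks was not tested.

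The class I molecules that these genes serve were lower too. All 6 measured chains passed the test (median log2 fold change -1.75), and 3 of the 6 were lower by at least 3-fold. HLA-C fell from 267 ± 32.1 to 53.6 ± 6.84 (log2 fold change -2.32, SE 0.121, adjusted p = 2.45e-12). HLA-G fell by 2.21 and HLA-B by 2.11 on the log2 scale. These HLA genes share long near-identical stretches, so a probe set named for 1 of them may measure several. B2M, the common light chain, fell from 528 ± 34.2 to 335 ± 12.4 (-0.65, SE 0.0802, adjusted p = 2.13e-06).

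The rest of the proteasome had a median closer to that of all tested genes, of which 21.4% were lower. Of 29 further subunits of the 20S core and 19S cap, 8 were lower and 1 was higher, with a median of -0.21, and the other 20 did not pass. Over the alternatives the number lower ranged from 0 (the methods' t-test with unequal variances) to 15 (a replicate block), with 1 in limma without the trend, 4 without a filter and 4 without resistant replicate 2. The lower ones included the ubiquitin receptor ADRM1 (-0.87) and the cap ATPase PSMC3 (-0.49), and the cap subunit PSMD2 rose (0.54). Of 8 other activators and assembly factors, 2 were lower, PSME3 (-0.68), the nuclear PA28 gamma, and the assembly chaperone PSMG3 (-0.74), and 6 did not pass. Among 5 general chaperones of class I folding, PDIA3 fell (-0.41), CANX rose (0.39) and 3 did not pass. Of 8 other peptidases 4 were lower and 1 was higher. ERAP2, the partner of ERAP1, fell from 25.8 ± 1.84 to 14.7 ± 0.917 (-0.81, adjusted p = 0.000353), LAP3, an interferon-inducible aminopeptidase, fell by 1.00 on the log2 scale, and BLMH, bleomycin hydrolase, rose from 2.61 ± 0.348 to 8.54 ± 1.26 (1.71, SE 0.198, adjusted p = 9.56e-07).

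Among 16 tested genes that regulate the pathway, 5 were lower (31.2%, beside 21.4% of all tested genes) and 11 did not pass. The median was -0.20, beside -0.10 over all tested genes. The genes named next are the largest called changes and NLRC5. IRF9, the DNA-binding part of the factor activated by type I interferon, fell from 10.4 ± 1.02 to 2.61 ± 0.703 (-2.03, SE 0.212, adjusted p = 2.12e-07). IFNGR1, a chain of the interferon gamma receptor, fell from 94.4 ± 0.638 to 45.1 ± 3.51 (-1.07, adjusted p = 7.85e-07). IRF1, the main activator of class I genes downstream of interferon gamma, fell from 5.57 ± 0.906 to 3.38 ± 0.310 (-0.71, SE 0.202, adjusted p = 0.0106). NLRC5, the class I transactivator, read 1.14 ± 0.296 and 0.294 ± 0.259. It was under the filter and was not tested, with signals near or under the array median. Its groups did not overlap, where 29.3% of all tested genes had every resistant array under every sensitive array.

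Class II genes were mostly too dim to test, with 4 of 11 past the filter. CD74, the invariant chain, fell from 1.86 ± 0.425 to 0.745 ± 0.393 (-1.43, SE 0.480, adjusted p = 0.0286), so its size rests on signals near or under the array median. HLA-DMB fell as well (-0.97, SE 0.289, adjusted p = 0.0144), with overlapping groups, and the other 2 did not pass. Both calls were lost when arrays were scaled on the median of only those probe sets that were tested (adjusted p = 0.0505 and 0.0683). Counted over all these lists, 29 of 79 genes were lower (36.7%), 3 were higher and 47 did not pass, beside 21.4% of all tested genes lower. Quantile normalization gave 27 lower and 14 higher. Of 13 leukocyte markers 5 were under the array median in all arrays, and the summed scaled signal of the 13 was 10.4 to 12.9 in the sensitive and 8.36 to 11.7 in the resistant samples. CD14 was the 1 of 4 tested leukocyte markers that fell (-2.81, SE 0.697, adjusted p = 0.00409). It read 2.41 ± 0.768 in the sensitive and 0.463 ± 0.353 in the resistant cells, so its size rests on signals under the array median. The part of such markers in the results was not tested.

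**Figure D4:**
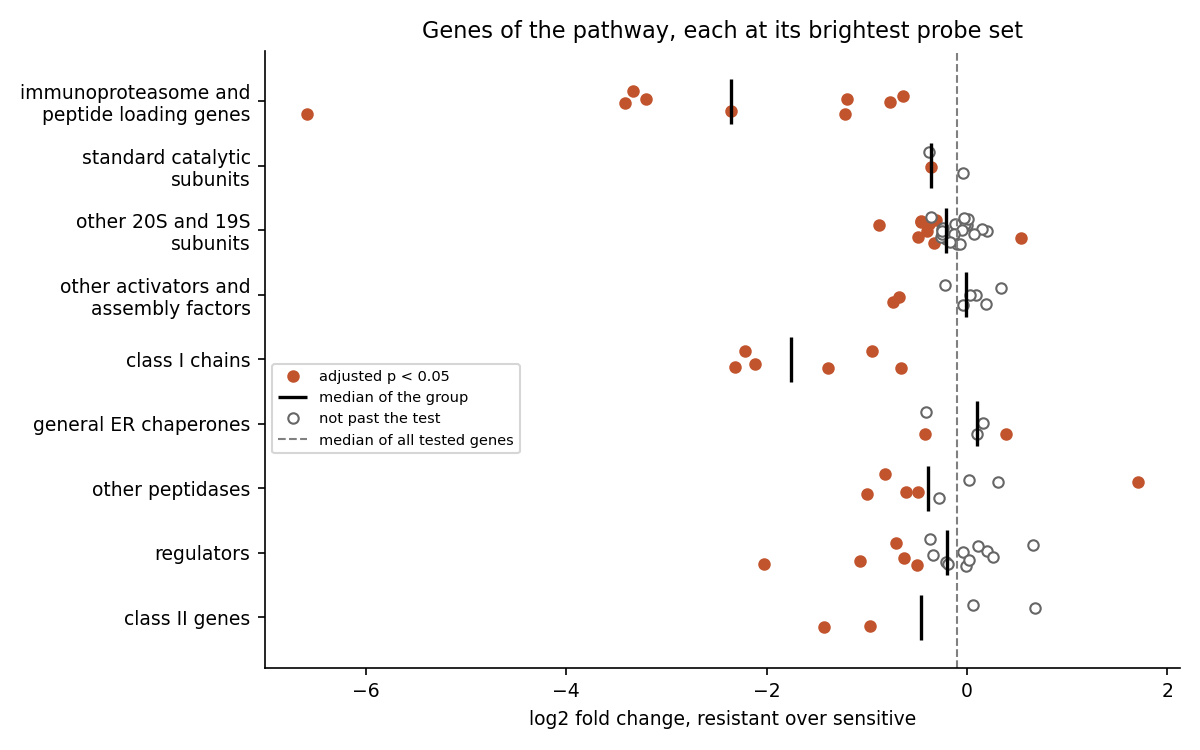
Log2 fold change (resistant over sensitive) of each tested gene at its brightest probe set, by group, filled where the adjusted p was under 0.05, with the median of each group (black bar) and of all tested genes (dashed line). The 9 genes and the class I chains lie to the left, with medians of -2.35 and -1.75, while the standard proteasome groups lie near the dashed line.

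TAP2, PSMB8, TAP1 and PSMB9 lie side by side on chromosome 6 in the class II part of the MHC, and the nearest tested genes around each of the genes were read in RefSeq order. Genes under the filter, as most class II genes were, were skipped. A neighbour named here need not be the next gene on the map, and where a change ends cannot be read from it. On one side of this block NOTCH4, a receptor, did not pass the test (0.05, adjusted p = 0.944), and on the other HLA-DMB was lower, as given above. PSMB8-AS1, an RNA gene on the opposite strand whose annotation overlaps the start of PSMB8 and the end of TAP1, fell from 5.04 ± 0.396 to 0.803 ± 0.248 (-2.70, SE 0.305, adjusted p = 6.36e-07), and whether its probe set lies in an overlapping stretch was not tested. TAPBP lies apart from this block on the same chromosome, and neither RGL2 (0.31, adjusted p = 0.224) nor ZBTB22 (0.55, adjusted p = 0.357) beside it passed. PSMB10 stood between CTRL (-0.71, adjusted p = 0.192) and SLC12A4 (-0.05, adjusted p = 0.943), neither of which passed. Further out, EDC4 (-0.77, adjusted p = 0.00288) and DDX28 (-0.53, adjusted p = 0.0287) were lower, while PSKH1 (-0.02) and DUS2 (-0.04) did not pass. NOTCH4, ZBTB22, CTRL and SLC12A4 had group means between 1.00 and 1.94, near the array median, with SE of 0.367 to 0.426. A modest fall in them could therefore be missed.

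PSME1 and PSME2 lie on either side of EMC9, a membrane insertase subunit, which did not pass (-0.29, adjusted p = 0.214). DCAF11 before them did not pass either (-0.09, adjusted p = 0.776), while IRF9 after them was among the lower regulators. Beside TAPBPL, LTBR did not pass (-0.23, adjusted p = 0.362) and VAMP1 rose (0.51, SE 0.191, adjusted p = 0.0492). Beside ERAP1, CAST did not pass (0.15, adjusted p = 0.428) and ERAP2 fell. Of 38 tested genes, up to 3 on each side of each gene, 8 were lower (21.1%), 3 were higher and 27 did not pass, with a median of -0.09 beside -0.10 over all tested genes. Quantile normalization gave 6 lower and 8 higher.

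**Figure D5:**
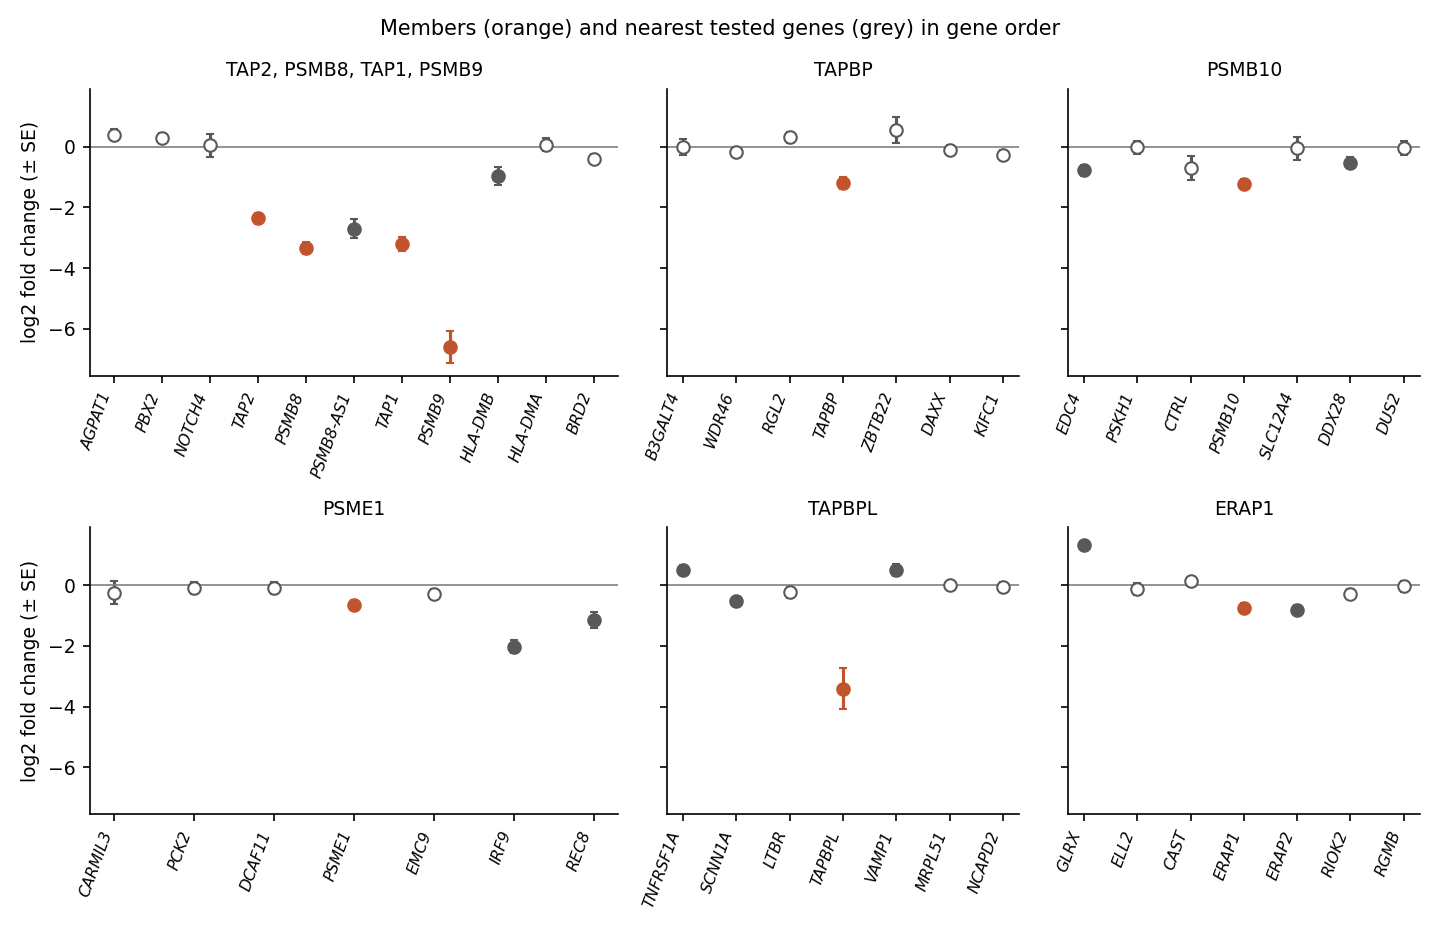
Log2 fold change (resistant over sensitive, ± SE, 3 arrays a group) of the genes (orange) and of up to 3 tested genes on each side (grey) in RefSeq order, with even spacing and filled points for an adjusted p under 0.05. TAP2, PSMB8, PSMB8-AS1, TAP1 and PSMB9 lie together between -2.35 and -6.59. HLA-DMB next to PSMB9 is lower at -0.97, and PBX2, NOTCH4, HLA-DMA and BRD2 around them did not pass the test.

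The genes whose profile over the 6 arrays was most like the mean of the 9 (each centred on its own mean) were KCNE3, a potassium channel subunit, RUNX2 and LMO4, which act in transcription, ALDH1A1, an aldehyde dehydrogenase, and TRIM29. Their Pearson correlations lay between 0.998 and 0.999 over 6 arrays. A correlation of 0.95 was exceeded by 443 of 11835 genes, some of the 9 among them, since most of this likeness is the difference between the 2 groups. KCNE3 fell from 57.9 ± 4.76 to 9.27 ± 2.80 (log2 fold change -2.68). RUNX2 fell by 0.93, LMO4 by 1.80, ALDH1A1 by 2.06 and TRIM29 by 2.50 on the log2 scale. The 9 were not scaled to equal spread, so their mean follows the deepest changes most. PSME1 (0.893), TAPBP (0.934) and PSMB10 (0.941) correlated with it under 0.95, and the others of the 9 at 0.975 to 0.999. Each of the 9 is itself part of that mean, which raises its correlation. The correlation is a description, with no test.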

How the data were processed

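Total RNA from 3 sensitive and 3 resistant samples of HT29 cells was hybridised to Affymetrix HG U133 Plus 2.0 arrays. As deposited by the authors, the values are MAS5 signals, which are linear intensities scaled over the whole array, from a version of MAS5 not given in the sources used here. Groups came from the submitters' labels. Of 54675 probe sets 62 controls were left out, and by the platform annotation 41091 probe sets name 1 gene, 1801 name several and 11721 name none. Symbols were updated through Entrez identifiers (41037 matched) with RefSeq of GRCh38.p14, which also gave gene order and promoters.

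Signals were divided by the array median, floored at 0.01, converted to log2 and fitted with limma 3.58.1 (R 4.3.3; lmFit, eBayes with trend), which was tested on simulated data. The test took in the 26833 probe sets whose scaled signal averaged 1 or more over the 6 arrays, and p-values were adjusted over all of them (Benjamini-Hochberg). A gene was read at its brightest probe set that names 1 gene. Tables were handled in Python 3.11.15 with pandas 2.3.3, and figures were drawn with matplotlib 3.10.9. Beside the 10 genes and PSMB5, PSMB6 and PSMB7, the text names up to 3 genes with the largest called change in each list, NLRC5 and IRF1, the nearest tested gene on each side and the 5 genes most alike, and any other gene it names was chosen after its values were seen. The genes and lists were chosen with earlier results of these data known. Some list members are not reported here. The number of arrays limits the precision. Alternatives were the scaling, floor, filter, test, probe set, fold threshold, replicate block and each array left out.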

Additional observations from a re-analysis of the deposited data

How the results depend on the processing

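Every log2 fold change of the 9 genes kept its sign under every alternative, over ranges of -7.57 to -3.80 for PSMB9, -4.12 to -1.41 for TAPBPL, -3.57 to -2.99 for PSMB8, -3.38 to -2.59 for TAP1, -2.53 to -2.01 for TAP2, -1.29 to -1.05 for PSMB10, -1.37 to -0.74 for TAPBP, -0.79 to -0.55 for ERAP1 and -0.76 to -0.45 for PSME1. TAPBPL gave no value under a filter of 2, which it did not pass. The treatment of low signals moved the sizes of PSMB9 and TAPBPL most, and the test moved the calls of the 9 genes most. The plain t-test with equal variances called 8 member probe sets, 13 other genes of the pathway and 4 map neighbours lower, and PSME1 (-0.64, adjusted p = 0.0796), TAPBP (-1.20, adjusted p = 0.0656) and TAPBPL (-3.41, adjusted p = 0.0664) no longer passed. With unequal variances it called 1 of the 9 genes lower (ERAP1, adjusted p = 0.0333), 0 by at least 3-fold, and 2 member probe sets. It called 2 other genes of the pathway lower and 0 higher. It called 0 map neighbours lower and 0 higher, where limma called the numbers given above. PSMB8 (-3.33, adjusted p = 0.0747), PSMB9 (-6.59, adjusted p = 0.134), PSMB10 (-1.22, adjusted p = 0.0605), PSME1 (-0.64, adjusted p = 0.128), TAP1 (-3.20, adjusted p = 0.0535), TAP2 (-2.35, adjusted p = 0.0849), TAPBP (-1.20, adjusted p = 0.109) and TAPBPL (-3.41, adjusted p = 0.164) did not pass it. Limma without the trend called 16 other genes of the pathway and 5 map neighbours lower. Scaling moved the higher calls: quantile normalization gave 14 other genes of the pathway and 8 map neighbours higher, scaling on the median of only the tested probe sets gave 9 and 7, no further scaling gave 5 of the pathway, and over all tested genes 2535 lower and 1406 higher became 2105 and 2375 under quantile normalization. With no filter 1 map neighbour was higher. The difference of PSMB9 to PSMB6 was -3.76 on log2(scaled signal + 1) and -4.0 with signals under the array median set to it, and that of PSMB10 to PSMB7 was -0.53 on the mean of all probe sets. Leaving out 1 array gave 3 to 5 other genes of the pathway higher, 5 to 9 map neighbours lower and 1 to 2 higher. The cause of these changes was not tested.

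Whether the replicate numbers pair the samples was not tested. The deviations of same-numbered samples correlated at 0.14, 0.01 and 0.08, and those of differently numbered samples at -0.11 to 0.03. With a replicate block 9 of the 9 genes were still lower, and 3148 genes were lower over all tested genes in place of 2535.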
